A study of Mus musculus with 9 samples.

Results

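Fmn1, Ldah, Rhot1, Slc27a1, Lrrc41, Apex1 and St7l are 7 of the 45808 genes of the count table that were read at almost nothing in T cells from control mice and at high levels in some mice given a checkpoint antibody. They were chosen from those very values: near 0 in the 3 Control libraries and read in some libraries of one or both antibodies. Their levels against Control are therefore described here without a test, and the choice had no numerical threshold. The highest Control value among them was 1.23 CPM (the count scaled to 1000000 gene counts of its library), for Slc27a1.

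RNA was taken from ICOS+ CD4 T cells that had been sorted by flow cytometry from MC38 tumours, a mouse colon carcinoma line, 12 days after C57BL/6J mice were injected with it. The 9 libraries, 1 per mouse and numbered by replicate, form 3 groups of 3: anti-CTLA-4, anti-PD-1 and Control. The mice share the strain, the tumour line and the day, and the labels name no transgene, antibody clone, dose or control treatment. CTLA-4 and PD-1 are inhibitory receptors of T cells, and ICOS is a costimulator found on T cells after activation. Because each mouse gave little RNA, the libraries were made with an amplification kit meant for single cells.

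The 7 genes have unlike roles and belong to no common pathway. Fmn1 encodes a formin, a protein that assembles unbranched actin filaments. Rhot1 encodes Miro1, a GTPase of the mitochondrial outer membrane that links mitochondria to motor proteins through Trak adaptors. Slc27a1 encodes a fatty acid transport protein, and Ldah a hydrolase found on lipid droplets. Lrrc41 encodes a leucine-rich repeat protein that binds elongins and so joins cullin ubiquitin ligases. Apex1 encodes the main endonuclease that cuts DNA at abasic sites in base excision repair. St7l is the relative of St7, a gene first described as a candidate tumour suppressor.

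The starts of Lrrc41, Apex1 and St7l lie within 500 bases of the start of a counted gene on the other strand, and the values of those partners are compared with theirs further on. The promoters of these 3, and that of Fmn1, which has no such partner, are shown 5′ to 3′ from RefSeq on GRCm38.p6, from 250 bases before to 50 bases after the RefSeq start. Capitals mark matches, on either strand, to CCAAT (the CCAAT box), to GGGCGG (the GC box), to TATAAA (the TATA box), to CACGTG (the E box) and to CGGAAG (an ETS core).
Lrrc41 promoter, chr4:116075019-116075318, + strand: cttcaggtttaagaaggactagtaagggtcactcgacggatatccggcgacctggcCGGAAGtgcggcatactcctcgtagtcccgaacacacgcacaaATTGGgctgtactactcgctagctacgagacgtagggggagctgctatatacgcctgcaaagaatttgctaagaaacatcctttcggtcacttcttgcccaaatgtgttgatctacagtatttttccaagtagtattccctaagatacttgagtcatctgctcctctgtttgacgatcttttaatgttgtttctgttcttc
Apex1 promoter, chr14:50924699-50924998, + strand: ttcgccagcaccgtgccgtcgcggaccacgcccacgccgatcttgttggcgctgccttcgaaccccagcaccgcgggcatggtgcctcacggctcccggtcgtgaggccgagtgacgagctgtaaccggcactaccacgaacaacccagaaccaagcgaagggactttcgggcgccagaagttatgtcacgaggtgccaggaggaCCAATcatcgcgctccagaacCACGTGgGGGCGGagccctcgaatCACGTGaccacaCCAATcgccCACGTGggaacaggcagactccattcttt
St7l promoter, chr3:104864256-104864555, + strand: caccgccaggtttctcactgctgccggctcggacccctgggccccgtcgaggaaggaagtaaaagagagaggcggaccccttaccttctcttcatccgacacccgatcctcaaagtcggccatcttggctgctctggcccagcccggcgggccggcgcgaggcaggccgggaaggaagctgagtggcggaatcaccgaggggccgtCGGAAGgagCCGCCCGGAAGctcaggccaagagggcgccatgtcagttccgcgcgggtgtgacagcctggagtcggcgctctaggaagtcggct
Fmn1 promoter, chr2:113327486-113327785, + strand: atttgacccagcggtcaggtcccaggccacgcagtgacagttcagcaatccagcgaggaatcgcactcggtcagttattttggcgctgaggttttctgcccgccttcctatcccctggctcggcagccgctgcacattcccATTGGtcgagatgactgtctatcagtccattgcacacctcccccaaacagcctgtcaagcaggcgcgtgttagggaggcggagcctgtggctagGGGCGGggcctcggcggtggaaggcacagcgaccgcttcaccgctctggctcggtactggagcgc
Windows for all 7 genes were found in the RefSeq table, and for genes with several windows the one closest to the GENCODE start was taken. CCAAT stood in 4 of the 7 windows and in 37.4% of all 32851 windows of that table. GGGCGG stood in 4 of 7 and in 35.7% of all windows, CGGAAG in 3 of 7 and in 16.9%, CACGTG in 1 of 7 and in 7.15%, and TATAAA in 1 of 7 and in 13.6%. CACGTG was the motif of Apex1 alone among the 7, with 3 matches. In the St7l window a GGGCGG match and a CGGAAG match share a base. The windows were 46.3% to 67.0% G and C, with a median of 62.7%, where the median of all windows was 52.7%. They held 10 to 31 CpG dinucleotides, with a median of 23, where the median of all windows was 7 and the middle range 3 to 20. Lrrc41 had the lowest G and C content and Slc27a1 the fewest CpG dinucleotides.

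Gene counts summed to 25530333 to 41508589 per library, so that 3 counts, the number taken as the floor for a gene at 0, equal 0.0723 to 0.118 CPM. Anti-CTLA-4 replicate 2 stood apart from the other libraries. It held 2485 genes at 10 CPM or more, against 3970 to 5456 in the other antibody libraries and 5640 to 5888 in Control. Its sum over 10 T cell markers was 3933 CPM against 9449 to 12996 CPM elsewhere, with Cd3e at 0.59 CPM and Cd5 at 0.731 CPM. The T cell receptor genes Cd3d, Cd3g and Trac, at 696, 649 and 632 CPM, were higher in it than in any other library. Its sum over 13 macrophage and monocyte markers was 4995 CPM against 187 to 737 CPM elsewhere, with 10 of the 13 at 1 CPM or more, as in Control replicate 1, and Cd14 and Fcgr1 at 0. Lyz2, Tyrobp, Cd68, Csf1r, Itgam, C1qc and Ms4a7 were highest in this library. Adgre1, C1qa, C1qb and Mrc1, at 11.1, 0.0843, 2.0 and 4.78 CPM in it, were each higher in at least 1 other library. Fibroblast markers summed to 1597 CPM in it and to 31.4 to 378 CPM elsewhere. Col1a1, Col1a2 and Col3a1 stood at 369, 615 and 603 CPM in it and Pdgfra at 9.59 CPM. Dcn, at 31.0 CPM or more elsewhere except in anti-PD-1 replicate 2, was at 0.0281 CPM in anti-CTLA-4 replicate 2. Lum and Pdgfrb were at 0 there. Cd4 and Icos, the markers of the sort, stood at 24.5 and 507 CPM in it. In the other 8 libraries Cd4 was read at 308 to 808 CPM and Icos at 1706 to 2876 CPM. Each of the 7 genes had its highest value in this library, so results that rest on it are given with and without it. The part of the other cell types' markers in these values was not tested. In RNA from sorted populations, fewer cells that use a gene and less RNA per cell cannot be told apart.

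Fmn1 alone of the 7 was at 10 CPM or more in all 3 anti-CTLA-4 mice. It stood at 73.0, 1008 and 52.9 CPM in anti-CTLA-4 mice 1, 2 and 3, at 54.8, 0.0302 and 0.175 CPM in anti-PD-1 mice 1, 2 and 3, and at 0.0482, 0.193 and 0.140 CPM in Control mice 1, 2 and 3. The anti-CTLA-4 and Control libraries did not overlap, while 2 of the 3 anti-PD-1 libraries lay in or below the Control range. The Control values rest on 2, 6 and 5 counts. Fmn1 (ENSMUSG00000044042) spans GRCm38 chromosome 2, 113327736 to 113716767, on the + strand. The 6 annotated genes within it that the count table lists were at 0 in all 9 libraries.

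Rhot1 was read in most antibody-treated mice. It stood at 0.131, 634 and 93.1 CPM in anti-CTLA-4 mice 1, 2 and 3, at 90.0, 7.64 and 55.9 CPM in anti-PD-1 mice 1, 2 and 3, and at 0.289, 0.0643 and 0.112 CPM in Control mice 1, 2 and 3. Every anti-PD-1 library lay above every Control library, and anti-CTLA-4 replicate 1 lay within the Control range. Rhot1 (ENSMUSG00000017686) spans chromosome 11, 80209019 to 80267907, and the annotation has no gene that overlaps it or starts within 5000 bases of its start.

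Both lipid genes were highest in anti-CTLA-4 replicate 2 but differed in the other libraries. Slc27a1 stood at 92.9, 925 and 7.99 CPM in anti-CTLA-4 mice 1, 2 and 3, at 0.0392, 0.0604 and 8.85 CPM in anti-PD-1 mice 1, 2 and 3, and at 1.23, 0.225 and 0.0559 CPM in Control mice 1, 2 and 3. All 3 anti-CTLA-4 libraries lay above Control, while 2 anti-PD-1 libraries lay among or below the Control values. Ldah stood at 0.131, 717 and 0.153 CPM in anti-CTLA-4 mice 1, 2 and 3, at 77.6, 17.1 and 0.175 CPM in anti-PD-1 mice 1, 2 and 3, and at 0.120, 0.0643 and 0.0838 CPM in Control mice 1, 2 and 3. For Ldah, anti-CTLA-4 replicates 1 and 3 and anti-PD-1 replicate 3 were above the highest Control library by no more than a few hundredths of a CPM. Slc27a1 (ENSMUSG00000031808) spans chromosome 8, 71568882 to 71587302, and Ldah (ENSMUSG00000037669) chromosome 12, 8208107 to 8285759. The annotated start of Ldah is overlapped by an antisense gene, Gm33037, whose own start is 1058 bases away and which has no value here. Nxnl1, which starts 2281 bases from Slc27a1 on the other strand, was at 0 in every library.

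Lrrc41 was the gene with the highest level in anti-PD-1 libraries. It stood at 0.0985, 267 and 0.0612 CPM in anti-CTLA-4 mice 1, 2 and 3, at 220 and 142 CPM in anti-PD-1 replicates 1 and 2 and 2.13 CPM in replicate 3, and at 0.0241, 0.161 and 0.0559 CPM in Control mice 1, 2 and 3. All 3 anti-PD-1 libraries lay above Control, and anti-CTLA-4 replicates 1 and 3 lay within it.

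Apex1 stood at 92.2, 513 and 0.0306 CPM in anti-CTLA-4 mice 1, 2 and 3, at 31.4, 0.151 and 0.205 CPM in anti-PD-1 mice 1, 2 and 3, and at 0.0482, 0.129 and 0.0559 CPM in Control mice 1, 2 and 3. It was thus high in 3 of the 6 antibody libraries, and anti-CTLA-4 replicate 3 lay below every Control library on a single count. St7l stood at 173, 351 and 0.337 CPM in anti-CTLA-4 mice 1, 2 and 3, at 0.118, 0.0604 and 0.117 CPM in anti-PD-1 mice 1, 2 and 3, and at 0, 0.0322 and 0.0559 CPM in Control mice 1, 2 and 3. Its level in all 3 anti-PD-1 libraries was near that of 3 counts, so that it was read in anti-CTLA-4 mice only, and there in 2 of 3 at 10 CPM or more. The 0 in Control replicate 1 allows up to 0.0723 CPM at that depth, by counting error only.

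**Figure D1:**
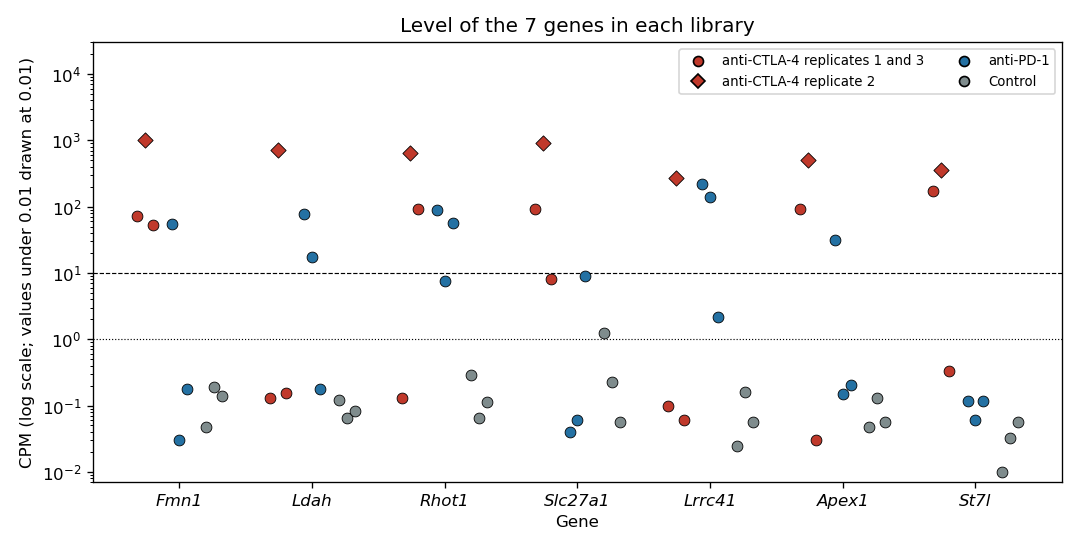
Level of each of the 7 genes in the 9 libraries, in CPM on a log axis, with 1 point per mouse and no averaging. The dashed line is 10 CPM and the dotted line 1 CPM. Antibody values are either at 17.1 CPM or more or at 0.337 CPM or less, apart from 4 of 42 between the lines. The diamond of anti-CTLA-4 replicate 2 is highest for every gene.

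The 7 genes were thus read as high or near 0 in an antibody library, with little between. The part of the amplification from little RNA in this was not tested. Of their 42 values in the 6 antibody libraries, 21 were at 10 CPM or more, from 17.1 to 1008 CPM. Another 17 were below 1 CPM, from 0.0302 to 0.337 CPM, and 4 lay between, from 2.13 to 8.85 CPM. None of the 21 Control values reached 10 CPM, as follows from the choice. By treatment, 13 of 21 anti-CTLA-4 values and 8 of 21 anti-PD-1 values reached 10 CPM. Of the 13, 7 were in anti-CTLA-4 replicate 2. The genes were chosen on these values and are no replicates of a treatment, so the 2 counts compare no antibodies. By mouse, 4, 7 and 2 of the 7 genes reached it in anti-CTLA-4 mice 1, 2 and 3, and 5, 2 and 1 in anti-PD-1 mice 1, 2 and 3. Without anti-CTLA-4 replicate 2 the count was 14 of 35. No gene reached 10 CPM in more than 4 of the 6 mice: Fmn1 and Rhot1 did so in 4, Ldah, Lrrc41 and Apex1 in 3, and Slc27a1 and St7l in 2.

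A single library held most of the counts. Anti-CTLA-4 replicate 2 contributed 90.8% of all Ldah counts, 90.5% for Slc27a1, 87.0% for Fmn1, 83.4% for Apex1, 75% for Rhot1, 70.2% for St7l and 47.7% for Lrrc41. Its value exceeded the next highest library by 13.8-fold for Fmn1 and by 1.21-fold for Lrrc41, the ends of the range. Without it the mean over the anti-CTLA-4 libraries fell to 62.9 CPM for Fmn1, against 378 ± 546 CPM with it (SD, n = 3). The mean without it was 86.6 CPM for St7l (175 ± 175 CPM with it), 50.4 CPM for Slc27a1 (342 ± 507), 46.6 CPM for Rhot1 (243 ± 343) and 46.1 CPM for Apex1 (202 ± 273). It was 0.142 CPM for Ldah (239 ± 414) and 0.0798 CPM for Lrrc41 (89.2 ± 154), where their Control means were 0.0895 and 0.0803 CPM. The Control counts of the 7 genes together with their antibody counts show how low Control was: they made up 0.0169% (St7l) to 0.165% (Slc27a1) of all counts of the gene.

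Per kilobase of exon, the order of the genes differed from that in CPM. In anti-CTLA-4 replicate 2, where all 7 were present, Apex1 stood highest at 361 counts per kilobase and 1000000 gene counts (RPKM, over the union of GENCODE M21 exons) and Slc27a1 next at 159 RPKM. Ldah followed at 98.2, Rhot1 at 85.6, Lrrc41 at 72.0, Fmn1 at 65.5 and St7l at 31.5 RPKM. With 1 library behind these values, no spread can be given for the order. Apex1, with 1422 exonic bases, is the shortest of the 7, and Fmn1, with 15397, the longest.

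The pattern by which the genes were picked was common in the table. In all, 1539 genes were at most 1 CPM in the 3 Control libraries and at least 10 CPM in an antibody library, and 6 of the 7 are among them, Slc27a1 being just above 1 CPM in Control replicate 1. Of the 1539, 1139 (74.0%) reached 10 CPM in a single antibody library, 293 in 2, 82 in 3 and 23 in 4. The share of a library's genes at 10 CPM that were silent in Control was alike in all 6 antibody libraries, 6.90% to 8.36%. Anti-CTLA-4 replicate 2 was the highest library for 163 of the 1539, or 10.6%, and for 7 of the 7. That library's values were among those by which the 7 were chosen. Without it, 1428 genes showed the pattern.

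The opposite pattern was more frequent. Each Control library also held more genes at 10 CPM or more, 5640 to 5888 against 2485 to 5456 in antibody libraries. The part of this in the counts below was not tested. With anti-CTLA-4, 854 genes were silent in Control and at 10 CPM or more in at least 1 treated library, while 2203 were silent in all 3 anti-CTLA-4 libraries and reached 10 CPM in a Control library. With anti-PD-1 the same counts were 977 and 1744. When all 3 libraries of the other group had to reach 10 CPM, 4 genes were present in anti-CTLA-4 and silent in Control and 130 the other way round, and for anti-PD-1 the counts were 15 and 77. Between the antibodies, 1200 genes were silent with anti-PD-1 and present with anti-CTLA-4, and 1785 the other way round. Without anti-CTLA-4 replicate 2 the 854, 2203, 1200 and 1785 were 704, 2481, 997 and 2019. The 4 and the 130 were then 51 and 174, with only 2 anti-CTLA-4 libraries left to pass. Leaving out 1 library moved some of these counts by more than 1.5 times. The direction follows from the definition. Without a library of the silent group a count can only rise, and without one of the other group it can only fall. The 854 became 528 without anti-CTLA-4 replicate 1 and 563 without replicate 3, and the 977 became 626 without anti-PD-1 replicate 3. The 1744 became 2646 without anti-PD-1 replicate 3, the 1785 became 2688 without anti-CTLA-4 replicate 1, and the 1200 became 773 without anti-CTLA-4 replicate 1 and 1889 without anti-PD-1 replicate 3.

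**Figure D2:**
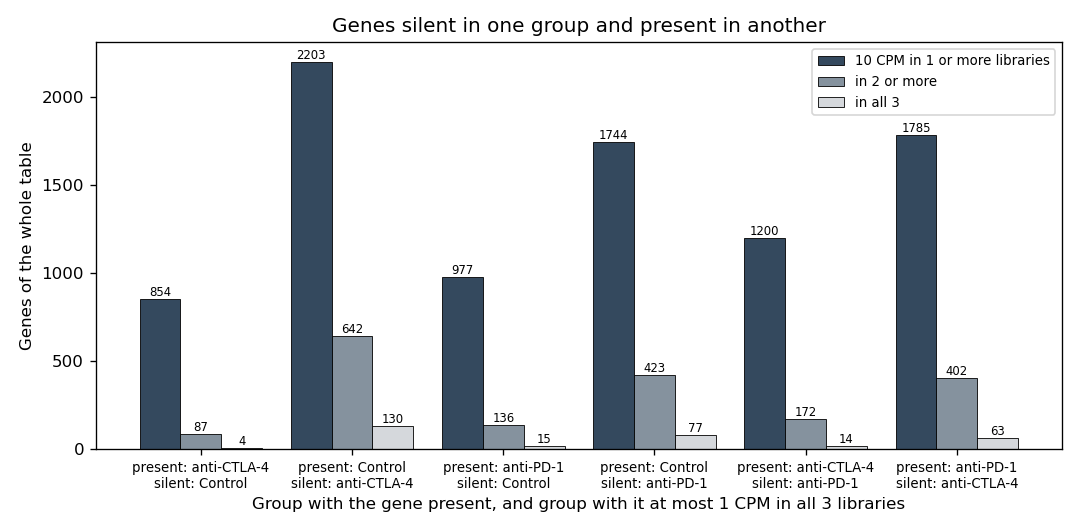
Number of genes of the whole table (y axis) that were at most 1 CPM in all 3 libraries of one group and at 10 CPM or more in at least 1, at least 2 or all 3 libraries of another group. Genes present after an antibody and silent in Control, the pattern of the 7 genes, numbered 854 and 977, fewer than genes present in Control and silent after the antibody, 2203 and 1744. Each Control library held more genes at 10 CPM or more than any antibody library, and the part of this was not tested.

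A split within a group was likewise the usual case. Of 7858 genes that passed the filter on low counts, 79.0% were below 1 CPM in one mouse and at 10 CPM or more in another of the same group. The share was 56.3% within anti-CTLA-4, 48.0% within anti-PD-1 and 37.6% within Control. Without anti-CTLA-4 replicate 2 it was 28.3% within the 2 remaining anti-CTLA-4 libraries and 67.5% in any group. All 7 genes passed that filter, through libraries of the antibody groups. In 4 of the 7 (Fmn1, Ldah, Slc27a1 and St7l) every anti-CTLA-4 library was above every Control library, which held for 1.57% of the filtered genes. Without anti-CTLA-4 replicate 2 it held for 4 of the 7 and for 8.03% of the filtered genes. Only 2 anti-CTLA-4 libraries then had to lie above Control, a looser condition. In 5 (Ldah, Rhot1, Lrrc41, Apex1 and St7l) every anti-PD-1 library was above every Control library, which held for 3.45%. Some of these orders rest on a few counts. Ldah had 4 and 5 in anti-CTLA-4 replicates 1 and 3, 6 in anti-PD-1 replicate 3 and 5 in Control replicate 1. St7l had 2 in anti-PD-1 replicate 2 and 2 in Control replicate 3. Apex1 had 5 in anti-PD-1 replicate 2 and 4 in Control replicate 2. How many genes showed such an order follows from how the genes were chosen.

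The difference between the antibodies was not what the genes were chosen for, but the values compared are among those by which they were chosen, so the fit below is given as a description and supports no difference. St7l passed the filter on low counts only through anti-CTLA-4 libraries and so had to differ. The fitted log2 fold change, anti-CTLA-4 over anti-PD-1, was positive for all 7 genes, and 3 were called by the quasi-likelihood test of edgeR, with p adjusted by Benjamini-Hochberg over 7858 genes. Over all tested genes 0.814% were called higher and 0.0127% lower with anti-CTLA-4. Slc27a1 averaged 342 ± 507 CPM after anti-CTLA-4 against 2.98 ± 5.08 CPM after anti-PD-1 (log2 fold change 8.29, SE 1.76, adjusted p = 0.00126). St7l averaged 175 ± 175 CPM after anti-CTLA-4 against 0.0983 ± 0.0328 CPM after anti-PD-1 (11.8, SE 2.95, adjusted p = 0.0125). It was the 1 gene of the 7 whose anti-CTLA-4 libraries all lay above all anti-PD-1 libraries, as 2.81% of tested genes did. With anti-CTLA-4 replicate 2 left out, this held for 1 of the 7 and for 10.2% of tested genes, a looser condition with 1 library fewer to pass. In anti-CTLA-4 replicate 3, St7l was near 0, at 0.337 CPM on 11 counts, against at most 0.118 CPM with anti-PD-1. Fmn1 averaged 378 ± 546 CPM after anti-CTLA-4 against 18.3 ± 31.6 CPM after anti-PD-1 (5.79, SE 1.51, adjusted p = 0.0236).

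The other 4 genes did not pass. Apex1 (202 ± 273 CPM after anti-CTLA-4 against 10.6 ± 18.0 CPM after anti-PD-1) had an adjusted p of 0.227 in the edgeR fit. Ldah (239 ± 414 and 31.6 ± 40.7 CPM in the same groups) had 0.308, Rhot1 (243 ± 343 and 51.2 ± 41.4 CPM) 0.330, and Lrrc41 (89.2 ± 154 and 121 ± 110 CPM) 0.987. Lrrc41 had a higher mean CPM with anti-PD-1 and a fitted change of 0.88 (SE 1.89) in the other direction. With library totals in place of TMM factors, of which anti-CTLA-4 replicate 2 had 0.407, its change was -0.43.

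None of the 7 passed without anti-CTLA-4 replicate 2, the lowest edgeR adjusted p being 0.523. The fitted change was then 9.69 (SE 4.89) for St7l, 4.14 (SE 4.2) for Slc27a1, 2.21 (SE 3.91) for Apex1, 1.92 (SE 3.65) for Fmn1 and 0.03 (SE 3.42) for Rhot1. It turned to -7.72 (SE 5.86) for Ldah and -10.6 (SE 4.70) for Lrrc41, the 2 genes that were near 0 in the other anti-CTLA-4 mice. Fitted changes of a gene with a group near 0 depend on the prior count and bound nothing. Over all genes, 65 were called between the antibodies with all 9 libraries, 6 when anti-CTLA-4 replicate 2 was left out, 145 when replicate 1 was and 131 when replicate 3 was. No gene of the 7 passed with RLE factors, with library totals alone or with the replicate number as a block, and DESeq2 gave none of them an adjusted p. Leaving out other libraries also ended calls. The edgeR adjusted p of Slc27a1 was 0.0774 without anti-PD-1 replicate 1. That of St7l was 0.159, 0.0874 and 0.140 without anti-PD-1 replicates 1, 2 and 3. That of Fmn1 was 0.183 and 0.284 without anti-PD-1 replicates 2 and 3, 0.0537 and 0.0519 without Control replicates 2 and 3, and 0.0773 in the fit of the 2 antibody groups alone.

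**Figure D3:**
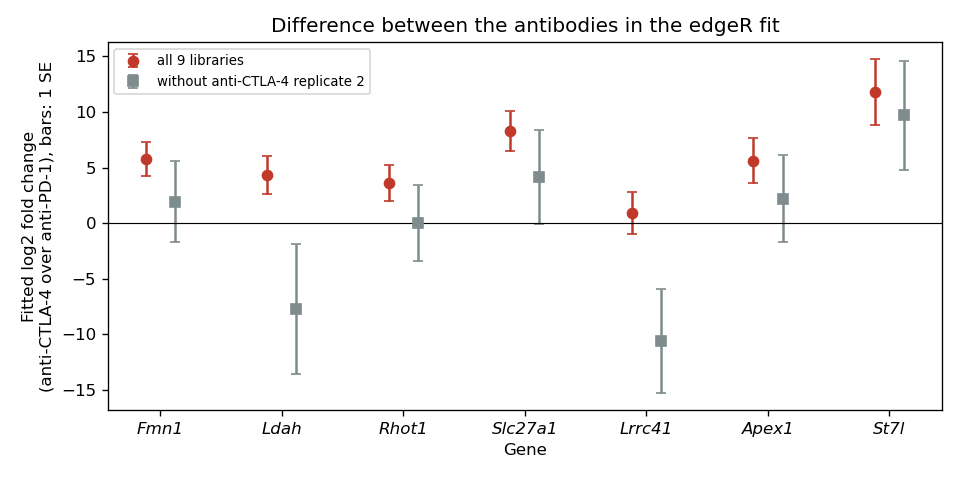
Fitted log2 fold change of the 7 genes, anti-CTLA-4 over anti-PD-1, with bars of 1 SE, from the edgeR fit of all 9 libraries (circles) and without anti-CTLA-4 replicate 2 (squares). All 7 circles lie above 0, from 0.88 for Lrrc41 to 11.8 for St7l, and the squares of Ldah and Lrrc41 lie below 0.

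The divergent neighbours of Lrrc41, St7l and Apex1 were not read in the same set of libraries as the genes, though each pair shared at least 1. Each neighbour was below 1 CPM in anti-CTLA-4 replicate 2, the library with the fewest genes at 10 CPM or more. The start of Uqcrh, a subunit of respiratory complex III, lies 198 bases from that of Lrrc41, inside the promoter window shown above. Uqcrh stood at 66.1, 0.169 and 152 CPM in anti-CTLA-4 mice 1, 2 and 3, at 51.0, 77.1 and 126 CPM in anti-PD-1 mice 1, 2 and 3, and at 62.5, 51.2 and 53.2 CPM in Control mice 1, 2 and 3. It was read in every library but anti-CTLA-4 replicate 2, the library in which Lrrc41 was highest. Both were at 10 CPM or more in 2 of 9 libraries, Uqcrh alone in 6 and Lrrc41 alone in 1.

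Capza1, a subunit of the actin capping protein, showed the like arrangement with St7l. The annotated start of St7l in GENCODE lies 500 bases inside Capza1, and the RefSeq start used for the promoter lies 501 bases downstream of it, next to the start of Capza1. Capza1 stood at 205, 0.534 and 91.9 CPM in anti-CTLA-4 mice 1, 2 and 3, at 42.9, 276 and 234 CPM in anti-PD-1 mice 1, 2 and 3, and at 96.6, 148 and 351 CPM in Control mice 1, 2 and 3. Capza1 alone was at 10 CPM or more in 7 of 9 libraries, both genes in 1 and St7l alone in 1, again anti-CTLA-4 replicate 2. The 2 genes overlap by 501 bases on opposite strands in GENCODE. The deposited counts are labelled first strand, while the HTSeq setting itself is not given in the sources used here. Whether reads there were set aside or shared was not tested.

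Osgep, which encodes an enzyme of transfer RNA modification, starts 75 bases from Apex1. It stood at 0.0656, 0 and 19.1 CPM in anti-CTLA-4 mice 1, 2 and 3, at 32.9, 0 and 1.64 CPM in anti-PD-1 mice 1, 2 and 3, and at 2.51, 1.74 and 7.27 CPM in Control mice 1, 2 and 3. Osgep reached 10 CPM in 2 antibody libraries and in no Control library. Both genes were at 10 CPM or more in 1 of 9 libraries, Apex1 alone in 2, Osgep alone in 1 and neither in 5. Osgep was above Apex1 in all 3 Control libraries and at 0 counts in anti-CTLA-4 replicate 2, where Apex1 stood at 513 CPM. Tmem55b (Pip4p1 in the annotation), a lysosomal membrane phosphatase that overlaps the end of Apex1 by 1072 bases on the other strand, ranged from 0 to 15.6 CPM with anti-CTLA-4, 10.4 to 174 CPM with anti-PD-1 and 0.161 to 77.1 CPM in Control. Rad54l, a recombination repair gene that overlaps the end of Lrrc41 by 2780 bases on the other strand, was read in anti-CTLA-4 replicate 1 (116 CPM) and in Control replicates 1 and 2 (107 and 46.7 CPM), libraries in which Lrrc41 was near 0. Of 15 annotated neighbours and overlapping genes, 12 were in the count table, 7 of them at 0 throughout, and these 5 were the ones that reached 10 CPM anywhere.

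**Figure D4:**
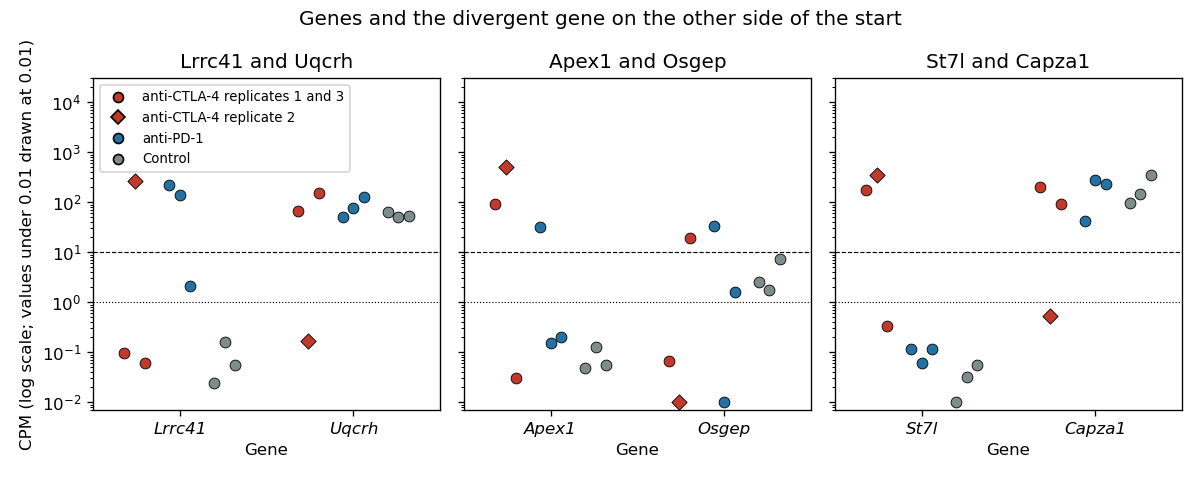
Lrrc41, Apex1 and St7l beside the divergent gene at their start, in CPM on a log axis, with 1 point per mouse. Uqcrh and Capza1 lie above 10 CPM in all libraries but anti-CTLA-4 replicate 2 (diamond), where Lrrc41 and St7l are highest.

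The 7 genes varied partly in parallel. Across the 9 libraries the Pearson correlation of log2(CPM + 1) between pairs of the 7 ranged from 0.181 (Slc27a1 and Lrrc41) to 0.938 (Ldah and Lrrc41), with a median of 0.643 over 21 pairs. Every pair shares the low Control libraries and the high anti-CTLA-4 replicate 2, which were used to choose the genes. Without that library the median over 8 libraries was 0.357, and the range was -0.443 to 0.972. The highest value was again Ldah and Lrrc41, both read in anti-PD-1 replicates 1 and 2. Slc27a1 and St7l followed at 0.832 and Apex1 and St7l at 0.764, all 3 read in anti-CTLA-4 replicate 1.

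Other genes were close to single members over the 9 libraries. Oas1b, an interferon-induced gene, had the highest likeness of all, with r = 0.996 to St7l and 0.934 to Slc27a1. It stood at 139, 497 and 0.0306 CPM in anti-CTLA-4 mice 1, 2 and 3, at 0.0392, 0.0604 and 0.584 CPM in anti-PD-1 mice 1, 2 and 3 and at 0.0482, 0.0643 and 0 CPM in Control mice 1, 2 and 3. Zfp948, a zinc finger gene, was closest to Apex1 (r = 0.986), with Flnc, a filamin, next (0.920). Gpc1, a glypican, was closest to Lrrc41 (0.955). The metal transporter gene Slc39a11 was closest to Slc27a1 (0.972), Raver1 (0.922) and Enox2 (0.921) to Rhot1, and the aryl hydrocarbon receptor gene Ahr second to St7l (0.972). Exoc6b, an exocyst gene read in every library at 41.4 to 302 CPM, was closest to Fmn1 (0.894), ahead of Zfp948 (0.880). With 7858 genes searched and 9 libraries, 1 of them high for all 7, these correlations describe the profiles and carry no test. Without anti-CTLA-4 replicate 2 the correlations named here ranged from 0.765 (Fmn1 and Zfp948) to 0.995 (St7l and Oas1b).

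Relatives and pathway partners of the 7 were described from lists of 118 genes. None of 68 tested genes among 118 related genes passed edgeR's test in any of the 3 comparisons, where 0.369% of all tested genes were called for anti-CTLA-4 against Control, 0.0764% for anti-PD-1 against Control (0.0382% higher and 0.0382% lower) and 0.827% for anti-CTLA-4 against anti-PD-1. An unadjusted edgeR p under 0.05 was reached by 6, 2 and 6 of the 68, and by 889, 472 and 1106 of all 7858 tested genes. In the same comparisons, DESeq2 called 3, 2 and 4 of the 50 that it gave an adjusted p. DESeq2 called far more genes over all: 10% of those it gave an adjusted p for anti-CTLA-4 against Control, 7.55% for anti-PD-1 against Control and 15.2% between the antibodies. The DESeq2 calls were Parp1 and Rbx1 higher and Fmnl2 lower with anti-CTLA-4 against Control, and Rbx1 higher and Soat1 lower with anti-PD-1 against Control. Between the antibodies Soat1 was called higher and Daam1, Fmnl3 and Klhdc3 lower with anti-CTLA-4. The pattern of silence in Control and 10 CPM or more after an antibody was shown by 2 of the 68, or 2.94%, and by 3.21% of all tested genes. Both the calls and this share were thus at or below the level of all genes and show nothing particular to these lists. Among the 118, which include genes below the filter, it was shown by 7, or 5.93%, where 3.36% of the whole table showed it, and by 6 without anti-CTLA-4 replicate 2. Armcx3, Cd36, Rbx1, Socs3, Ogg1 and Neil3 are among them and were named after their values were seen.

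Among 14 other formins, 9 were tested, and 5 and 6 had a positive fitted change with anti-CTLA-4 and anti-PD-1 against Control, with medians of 0.08 and 0.35 on the log2 scale, against medians of 0.01 and 0.07 over all tested genes. Fmnl1, the formin of leukocytes, was the most abundant. It stood at 340, 0.675 and 407 CPM in anti-CTLA-4 mice 1, 2 and 3, at 433, 296 and 339 CPM in anti-PD-1 mice 1, 2 and 3, and at 134, 387 and 152 CPM in Control mice 1, 2 and 3. Anti-CTLA-4 replicate 2, the library highest in Fmn1, was thus the lowest in Fmnl1, and also in Diap2 (0.197 CPM against 39.3 to 325 CPM elsewhere) and Diap1 (5.60 CPM against 100 CPM or more elsewhere), both of the diaphanous formins. None of the 14 showed the pattern of Fmn1. Without anti-CTLA-4 replicate 2, where 9308 genes were tested, the median for anti-CTLA-4 against Control was 0.65, and -0.12 over all genes.

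Of 19 genes for the transport, fusion and fission of mitochondria, 12 were tested, with 5 and 8 positive fitted changes with anti-CTLA-4 and anti-PD-1 against Control (medians -0.21 and 0.25). The first median was -0.93 over 14 tested genes without anti-CTLA-4 replicate 2. Rhot2, the paralog of Rhot1, was read in every library, at 539, 66.9 and 35.7 CPM in anti-CTLA-4 mice 1, 2 and 3, at 165, 216 and 623 CPM in anti-PD-1 mice 1, 2 and 3, and at 345, 314 and 283 CPM in Control mice 1, 2 and 3. Kif5b, the kinesin that carries mitochondria, was likewise read in every library, at 34.0 to 370 CPM with anti-CTLA-4, 64.0 to 263 CPM with anti-PD-1 and 43.1 to 280 CPM in Control. Trak2, the adaptor between Miro proteins and motors, was at its highest, 657 CPM, in anti-CTLA-4 replicate 2 and below 1 CPM in anti-CTLA-4 replicate 1 and anti-PD-1 replicate 2, but also at 1.08, 103 and 49.3 CPM in Control.

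Of 22 lipid droplet genes, 9 were tested, with 4 positive fitted changes in each comparison with Control (medians -0.15 and -0.33). The first median was 0.37 over 10 tested genes without anti-CTLA-4 replicate 2, of the opposite sign. Hilpda, an inhibitor of lipolysis, was read in every library, at 27.8 to 153 CPM with anti-CTLA-4, 88.9 to 455 CPM with anti-PD-1 and 132 to 190 CPM in Control. Dgat1, an enzyme of triglyceride synthesis, stood at 137 to 190 CPM in Control, at 0.197 CPM in anti-CTLA-4 replicate 2 and at 54.0 CPM or more in anti-CTLA-4 replicates 1 and 3. It stood at 302, 10 and 35.8 CPM in anti-PD-1 mice 1, 2 and 3, so that 2 of these lay below every Control library. Bscl2, which encodes the droplet assembly protein seipin, was below 1 CPM in anti-CTLA-4 replicate 2 and anti-PD-1 replicate 2.

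Of 17 genes of fatty acid uptake and activation 5 were tested, with 3 and 2 positive fitted changes (medians 0.48 and -1.40). The first median was -0.16 over 7 tested genes without anti-CTLA-4 replicate 2, again of the opposite sign. Acsl4, an acyl-CoA synthetase, stood at 134, 0.112 and 0.153 CPM in anti-CTLA-4 mice 1, 2 and 3, at 165, 10.3 and 114 CPM in anti-PD-1 mice 1, 2 and 3, and at 358, 208 and 236 CPM in Control mice 1, 2 and 3. Its Control libraries lay above all 6 antibody libraries, with no call in either comparison. Acsl5 was read in every library but anti-CTLA-4 replicate 1, where it was below 1 CPM. Cpt1a, which brings fatty acids into mitochondria, ranged over 3.45 to 150 CPM with anti-CTLA-4, 18.3 to 567 CPM with anti-PD-1 and 0.224 to 64.6 CPM in Control. Cd36, a fatty acid receptor, was at 24.7 CPM in anti-CTLA-4 replicate 2 and at most 0.0292 CPM elsewhere.

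Of 22 genes of cullin ligases with elongins, 18 were tested, with 9 and 7 positive fitted changes (medians 0.01 and -0.22). The first median was 0.42 over 19 tested genes without anti-CTLA-4 replicate 2. Rbx1, the RING subunit of these ligases, showed the pattern of the 7. It stood at 50.4, 0 and 0.0612 CPM in anti-CTLA-4 mice 1, 2 and 3, at 71.1, 153 and 19.4 CPM in anti-PD-1 mice 1, 2 and 3, and at 0, 0.354 and 0 CPM in Control mice 1, 2 and 3. It was at 0 in anti-CTLA-4 replicate 2, unlike any of the 7. Cish, a SOCS box protein induced by cytokines, was read in all libraries, at 39.4 to 153 CPM with anti-CTLA-4, 85.6 to 125 CPM with anti-PD-1 and 129 to 328 CPM in Control. Rnf7 was below 1 CPM only in anti-PD-1 replicate 2 and Asb8 only in anti-PD-1 replicate 3.

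Of 23 genes of base excision repair 14 were tested, with 9 positive fitted changes in each comparison with Control (medians 1.21 and 0.29). The first median was 0.86 over 16 tested genes without anti-CTLA-4 replicate 2. Apex2, the paralog of Apex1, was highest in anti-CTLA-4 replicate 2 as well. It stood at 0.230, 472 and 0.0306 CPM in anti-CTLA-4 mice 1, 2 and 3, at 11.7, 0.906 and 5.67 CPM in anti-PD-1 mice 1, 2 and 3, and at 64.0, 34.5 and 37.4 CPM in Control mice 1, 2 and 3, so that it was present in every Control library in which Apex1 was near 0. Ogg1 and Neil3, glycosylases that remove oxidized bases, were near 0 in Control. Ogg1 was highest in anti-PD-1 replicate 2 at 146 CPM and Neil3 in anti-CTLA-4 replicate 1 at 102 CPM. Both were below 1 CPM in anti-CTLA-4 replicate 2. Hmgb1, a chromatin protein, was read in every library, at 159 to 194 CPM with anti-CTLA-4, 81.3 to 139 CPM with anti-PD-1 and 103 to 171 CPM in Control. Pcna stood at 100 CPM or more in 8 libraries and at 0.0843 CPM in anti-CTLA-4 replicate 2. St7, the relative of St7l, was at 125, 0.0562 and 0.0306 CPM in anti-CTLA-4 mice 1, 2 and 3, at 0.118, 105 and 0 CPM in anti-PD-1 mice 1, 2 and 3, and at 0.0964, 61.4 and 49.5 CPM in Control mice 1, 2 and 3, a split within each group.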

How the data were processed

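The authors deposited 1 table of raw, unnormalized counts with gene symbols and 9 library columns. Per the submitters' processing notes, the tools were TopHat2, HTSeq and DESeq2 and the build GRCm38, with versions and settings not given in the sources used here. HTSeq summary entries were left out; genes took 32.9% to 40.7% of all counts, and reads that were not unique (24.3% to 31.1%) stayed uncounted, so genes with near copies can read low. No column was left unmapped. Libraries came from separate mice per the labels' protocols.

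CPM uses gene totals. edgeR 4.0.16 (R 4.3.3) fitted all 9 libraries with group as the only term, TMM factors, filterByExpr with a minimum count of 10, the robust quasi-likelihood test, Benjamini-Hochberg adjustment and a threshold of 0.05. An SE is the log2 change divided by the root of its F statistic. Annotation was GENCODE M21 and RefSeq. The members and lists were chosen with earlier results of these data known. Named genes were the members, the 2 most alike genes of each, neighbours with starts within 5000 bases or overlapping, called related genes and the 3 most abundant of each related list. Some genes that this rule names are not reported here. Of 118 related genes all had a row in the table, older symbols included. On simulated data the fit made few false calls and missed most of the large changes put in, lowered genes above all, so a gene without a call may still differ. The simulated libraries shared the same mean profile, with none set apart like anti-CTLA-4 replicate 2. How many false calls such a library brings was not tested. The simulated counts also came from the kind of model that the fit assumes. Whether that model matches the measured counts, where 79.0% of tested genes split within a group, was not tested. Alternatives were DESeq2 1.42.0, RLE factors, library totals, other filters, fits of 2 groups, the replicate block and each library left out.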

Additional observations from a re-analysis of the deposited data

Results flagged for a closer look

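Slc27a1, St7l and Fmn1 were called between the antibodies, with fitted log2 fold changes, anti-CTLA-4 over anti-PD-1, of 8.29, 11.8 and 5.79 and edgeR adjusted p of 0.00126, 0.0125 and 0.0236. The genes were chosen on these libraries, and St7l passed the filter only through anti-CTLA-4, so these values are no independent evidence. All 3 calls ended without anti-CTLA-4 replicate 2 (edgeR adjusted p 0.815, 0.523 and 0.975). Over the alternatives the adjusted p ranged from 0.000319 to 0.874 for Slc27a1, which passed in 10 of 15. It ranged from 0.00634 to 0.523 for St7l, which passed in 7 of 14, and from 0.000734 to 0.975 for Fmn1, which passed in 6 of 15. Of the 3 anti-CTLA-4 mice, all 3 were above every anti-PD-1 mouse for St7l, while the groups overlapped for Slc27a1 and Fmn1. For St7l, anti-CTLA-4 replicate 3 was nonetheless near 0, at 0.337 CPM on 11 counts, against at most 0.118 CPM with anti-PD-1. All 3 genes were highest in anti-CTLA-4 replicate 2, the library with the highest macrophage marker sum (4995 CPM) and the fewest genes at 10 CPM (2485). The part of these in the differences was not tested.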

How the results depend on the processing

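Called genes between the antibodies numbered 65 as reported (1106 with an unadjusted p under 0.05), 0 with RLE factors, 6 with library totals only, 98 with no filter, 31 with the 2 groups only, 12 with the replicate block and 847 with DESeq2. Leaving out 1 library gave 6 to 145. Related genes called were 0 in all edgeR fits of the 3 comparisons, also with each library left out (0 to 0). DESeq2 called 3 for anti-CTLA-4 against Control, 2 for anti-PD-1 against Control and 4 between the antibodies. The fitted change between the antibodies reversed for Lrrc41 with library totals (-0.43), the replicate block (-3.34) and without anti-CTLA-4 replicate 2 (-10.6), and for Ldah without that library (-7.72). Over the libraries left out singly the change ranged from -10.6 to 1.31 for Lrrc41 and from -7.72 to 5.68 for Ldah. The cause was not tested. Same-numbered libraries of different groups did not deviate together (r from -0.0345 to 0.0182 over 9 pairs, against -0.0229 to 0.0296 over 18 pairs of different numbers), so the number was not taken as a pairing.

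With 50 CPM for presence, genes silent in Control numbered 468 in anti-CTLA-4 and 482 in anti-PD-1. Genes present in Control numbered 905 (silent with anti-CTLA-4) and 637 (silent with anti-PD-1), and between the antibodies the counts were 682 present with anti-CTLA-4 and 977 present with anti-PD-1. Leaving out single libraries gave 528 to 1236 and 626 to 1425 silent in Control, 1637 to 3208 and 1267 to 2646 silent after an antibody and present in Control, 773 to 1889 present with anti-CTLA-4 and silent with anti-PD-1, and 1213 to 2688 the reverse. Values of the 7 genes at 10 CPM or more in antibody libraries numbered 21 of 42, and 14 of 35 without anti-CTLA-4 replicate 2. Such values numbered 21 with TMM factors and, with thresholds chosen after seeing the data, 25 at 1 CPM and 19 at 50 CPM.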
